A study of Homo sapiens with 12 samples.

Results

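The genes described here are 10 feedback and output genes of the ERK pathway, *DUSP4*, *DUSP5*, *DUSP6*, *SPRY2*, *SPRY4*, *SPRED1*, *SPRED2*, *ETV4*, *ETV5* and *PHLDA1*. They were matched by symbol to the Entrez identifiers of the expression table, and all 10 were found among its 26258 identifiers. RNA sequencing was done on HLE cells, an established human hepatocellular carcinoma line, transfected with a control siRNA (siCtrl), with siRNA that depletes both YAP and TAZ (siY/T) or with one that depletes ATF4 (siATF4). Each transfected culture received the vehicle DMSO or 5 µM Sorafenib (Srf), a kinase inhibitor whose targets include RAF, which gave 6 groups of 2 libraries and 12 libraries in all. The dose is that of the labels, which give no duration, while a legend of the study gives a higher dose and a fixed duration for this sequencing. The study's methods speak of biological replicates, more of them per group than the 2 libraries here, and the labels do not tie the libraries to separate cultures, so p-values measure the spread between these libraries. Every group was transfected, so untransfected cells are not among the groups.

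The ERK cascade runs from receptor tyrosine kinases through RAS, RAF and MEK to the kinase ERK, and active ERK switches on genes that restrain the same cascade. Among these are nuclear and cytoplasmic dual-specificity phosphatases, which remove the activating phosphates from ERK, and the Sprouty and Spred proteins, which act on RAS and RAF upstream. The PEA3 transcription factors ETV4 and ETV5 are produced under the same control, and the mRNA levels of these genes are therefore in common use as a readout of ERK output. YAP and its paralogue TAZ (gene *WWTR1*) are the coactivators restrained by the Hippo pathway, and ATF4 is the transcription factor of the integrated stress response. The comparisons ask how the readout moved with Sorafenib, how it moved on loss of YAP/TAZ or ATF4, and whether the Sorafenib response itself differed after either depletion.

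Promoter sequences from RefSeq (GRCh38.p14) were at hand for 6 of the 10 genes, in 9 windows. The 250 bases before the start are shown for *SPRY4* and *DUSP6*, the 2 of the 10 genes whose levels were most alike across the 12 libraries, and for *SPRED2*, which moved least with Sorafenib in siCtrl cells. All 3 lie on the minus strand, *SPRY4* at chr5:142324248-142324497, *DUSP6* at chr12:89352502-89352751 and the first *SPRED2* window at chr2:65432600-65432849. Each is written 5′ to 3′ in the direction of transcription, and capitals mark the letters GGAA or, on the other strand, TTCC, the core that ETS factors such as ETV4 and ETV5 recognise.
SPRY4: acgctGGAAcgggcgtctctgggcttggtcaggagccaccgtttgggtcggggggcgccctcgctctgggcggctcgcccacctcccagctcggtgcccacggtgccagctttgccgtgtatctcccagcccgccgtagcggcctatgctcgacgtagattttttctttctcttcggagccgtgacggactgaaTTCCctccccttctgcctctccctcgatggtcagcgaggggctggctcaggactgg
DUSP6: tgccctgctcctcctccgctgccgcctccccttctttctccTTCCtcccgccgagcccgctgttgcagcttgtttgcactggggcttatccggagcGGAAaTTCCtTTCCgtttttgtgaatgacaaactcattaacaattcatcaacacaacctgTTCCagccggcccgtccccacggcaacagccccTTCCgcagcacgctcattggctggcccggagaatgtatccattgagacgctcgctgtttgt
SPRED2: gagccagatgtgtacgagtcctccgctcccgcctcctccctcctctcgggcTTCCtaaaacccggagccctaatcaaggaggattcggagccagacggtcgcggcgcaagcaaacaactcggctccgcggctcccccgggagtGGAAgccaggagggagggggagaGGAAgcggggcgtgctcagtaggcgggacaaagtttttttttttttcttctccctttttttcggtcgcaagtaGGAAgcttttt
The *SPRY4* window held 2 such cores, the *DUSP6* window 6 and the *SPRED2* window 4. Over all 35116 promoter windows of that length the median was 3, with 1 and 5 at the 10th and 90th percentiles, and 92.7% held at least 1, so that the count in *SPRY4* was below the median and that in *DUSP6* above the 90th percentile. Longer motifs were searched on both strands in the 9 windows, namely CCGGAAG for ETS factors (in 8.52% of all promoters), TGACTCA for AP-1 (4.20%), TGACGTCA for CREB and ATF factors (1.65%), GGAATG for TEAD (11.9%), TGATGNAAT for ATF4 with CEBP (0.888%) and the CArG box of SRF (1.16%). CCGGAAG and GGAATG can overlap the 4-letter core. None of these 6 longer motifs was in any of the 9 windows, which speaks for these letters in these bases alone.

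Values are CPM, the reads of a gene scaled to a common total of 1000000 in each library. Sequencing depth on genes was between 41408348 and 53619732 reads, and a single read was worth 0.0186 to 0.0241 CPM. The test was limma on log2(CPM + 0.5) over the 13515 genes that reached 1 CPM in 2 or more libraries. A gene was called higher or lower where its unadjusted two-sided P was under 0.05 and its log2 fold change was 0.58 or more in size, thresholds of the kind the original analysis applied. A difference between 2 Sorafenib responses was called at a Benjamini-Hochberg adjusted p under 0.05. All log2 fold changes below are on the log2(CPM + 0.5) scale, which understates the change of genes near or under 1 CPM, so ratios of mean CPM are given beside them. All 10 genes passed the filter, 7 of them with at least 1 CPM in all 12 libraries, *DUSP6* and *SPRY4* in 10, and *DUSP4* in only the 2 siATF4 DMSO libraries. *DUSP4* thus entered the test only through the group in which it was high, so its values against that group are given as a description. The main counts of the comparisons that involve siATF4 are also given without it. The siRNA targets were lower in their own groups, *YAP1* at 46.6 to 57.7 CPM in siY/T DMSO against 277 to 280 CPM in siCtrl DMSO cells, *WWTR1* at 53.3 to 68.6 against 170 to 173 CPM, and *ATF4* at 96.2 to 101 CPM in siATF4 DMSO against 248 to 249 CPM. With Sorafenib *ATF4* was at 484 to 492 CPM in siCtrl and 84.5 to 90.6 CPM in siATF4 cells, and *WWTR1* was also lower in siATF4 DMSO cells, at 104 to 107 CPM. *ATF4* in turn was lower in siY/T cells, at 197 to 207 CPM in DMSO and 314 to 317 CPM in Sorafenib. The hepatocyte genes *ALB*, *AFP*, *APOA1*, *APOB*, *TTR* and *TF* did not exceed 0.117 CPM in any library, and *SERPINA1* did not exceed 2.32 CPM. Of the epithelial genes, *KRT8* was at 655 to 2560 and *KRT18* at 312 to 1090 CPM, but *EPCAM* at 0.150 to 0.701 and *CDH1* at 0.0396 to 7.93 CPM. Of the mesenchymal genes, *VIM* was at 1950 to 2920, *FN1* at 18.8 to 79.6 and *CDH2* at 3.77 to 6.92 CPM. The leukocyte gene *PTPRC* and the endothelial genes *PECAM1* and *CDH5* did not exceed 0.150 CPM, while *CD68*, also listed for leukocytes, was at 19.8 to 75.0 CPM.

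Per kilobase (kb) of the canonical transcript, the members covered a wide range of levels. In siCtrl DMSO cells *SPRED2* was first at 13.9 CPM per kb, *DUSP5* second at 10.6 and *PHLDA1* next at 10.2, followed by *SPRY2* at 5.81 and *SPRED1* at 3.13, with *ETV4* and *ETV5* both at 1.93. *SPRY4* at 0.871, *DUSP6* at 0.781 and *DUSP4* at 0.0665 CPM per kb were the lowest. In siATF4 DMSO cells *DUSP5* was first at 80.4 CPM per kb, ahead of *PHLDA1* at 22.9 and *SPRED2* at 15.1. *DUSP5* and *PHLDA1* in siCtrl DMSO, and *SPRY4* and *DUSP6*, were close neighbours in this order, and no test was made between genes.

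**Figure D1:**
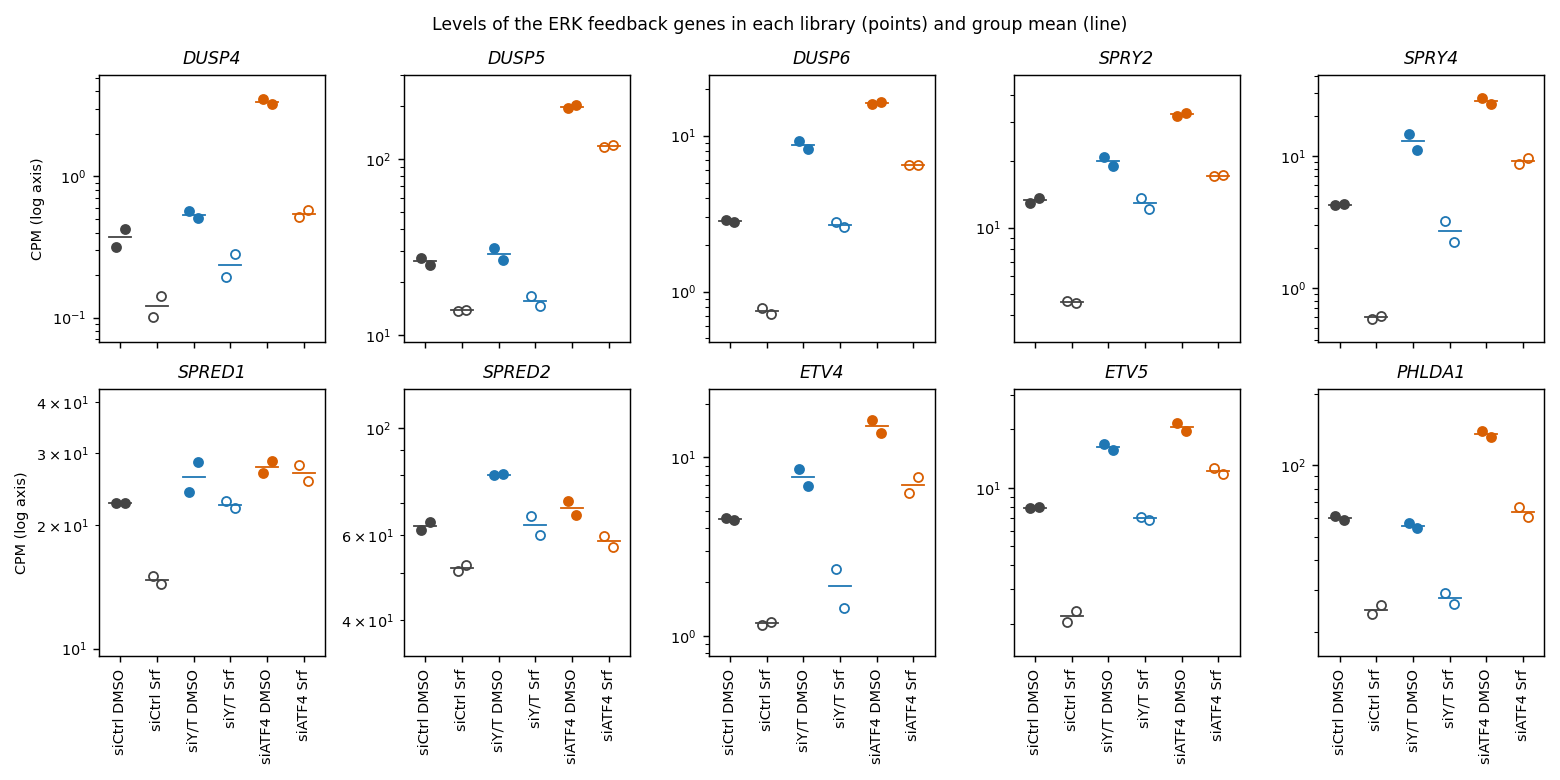
Level of each of the 10 genes in each library, in CPM on a log axis with its own range in each panel. Each point is 1 library, filled for DMSO and open for Sorafenib, and the line is the mean of the 2 libraries. *DUSP5* stood at 196 and 202 CPM in siATF4 DMSO cells against 27.2 and 25.1 CPM in siCtrl DMSO cells, and the panel of *SPRED2* spans the narrowest range.

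Sorafenib lowered the readout in siCtrl cells. Of the 10 genes, 8 fell and 0 rose, where 5.15% of all tested genes were called lower and 12.3% higher. Their median log2 fold change was -1.34, beside 0.05 over all genes, and the range was -2.12 for *SPRY4* to -0.29 for *SPRED2*. The same comparison in siY/T cells gave 7 lower and 0 higher (4.14% and 5.83% of all genes), with a median of -0.93 beside 0.04. In siATF4 cells 8 were lower and 0 higher (2.95% and 5.68%), with a median of -0.97 beside 0.03, and without *DUSP4* 7 of 9 were lower, with a median of -0.91. All 10 values were below 0 in each of the 3 backgrounds. No scaling tried turned any of these directions.

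**Figure D2:**
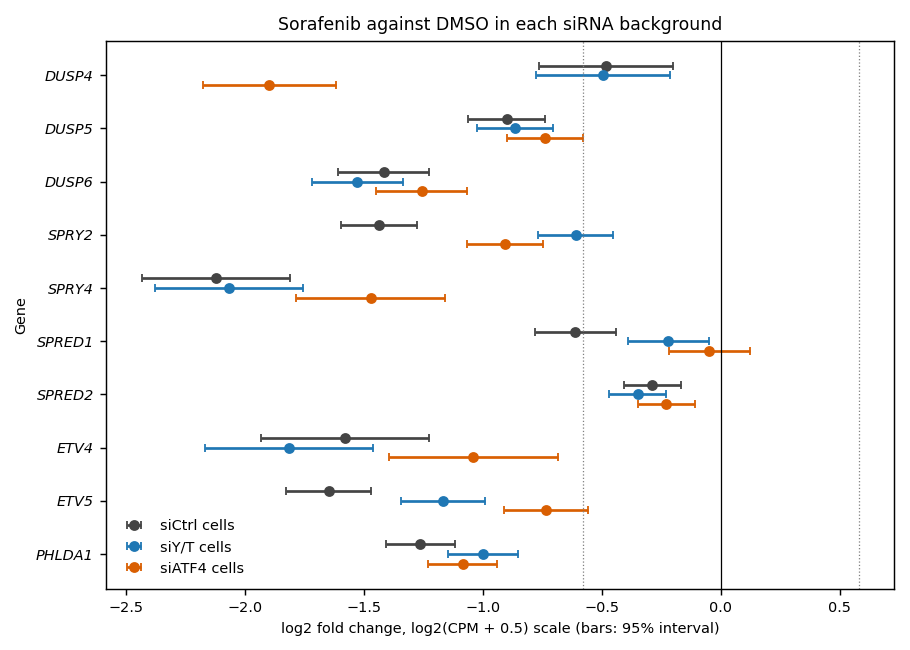
log2 fold change of Sorafenib against DMSO for each gene in siCtrl, siY/T and siATF4 cells, on the log2(CPM + 0.5) scale. Points are the limma estimates from 2 against 2 libraries, and dotted lines mark the threshold of 0.58. Bars are the 95% intervals, from a spread shared by all 6 groups. *SPRY4* in siCtrl cells lies furthest to the left at -2.12, and *SPRED1* in siATF4 cells lies at -0.05 with an interval across 0.

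Depletion raised members of the readout in both media. With siY/T in DMSO, 4 genes were higher and 0 lower (11.0% and 3.61% of all genes), with a median log2 fold change of 0.46 beside 0.07 over all genes. With siY/T in Sorafenib, 5 were higher and 0 lower (6.11% and 3.84%), with a median of 0.54 beside 0.05. With siATF4 in DMSO, 8 were higher and 0 lower (8.57% and 14.1%), with a median of 1.48 beside 0.00 over all genes, and without *DUSP4* 7 of 9 were higher, with a median of 1.33. With siATF4 in Sorafenib, 9 were higher and 0 lower (10.3% and 18.7%), with a median of 1.98 beside -0.01, and without *DUSP4* 8 of 9 were higher, with a median of 2.16. The siY/T and siATF4 comparisons share their siCtrl libraries, and the siCtrl libraries also enter the Sorafenib comparison in siCtrl cells, so these values are not independent of each other. The difference between the siY/T and siATF4 effects was not tested. In each of these 7 comparisons the limma count of 0 in the opposite direction was also 0 at an unadjusted P under 0.05 alone, with edgeR and with DESeq2.

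**Figure D3:**
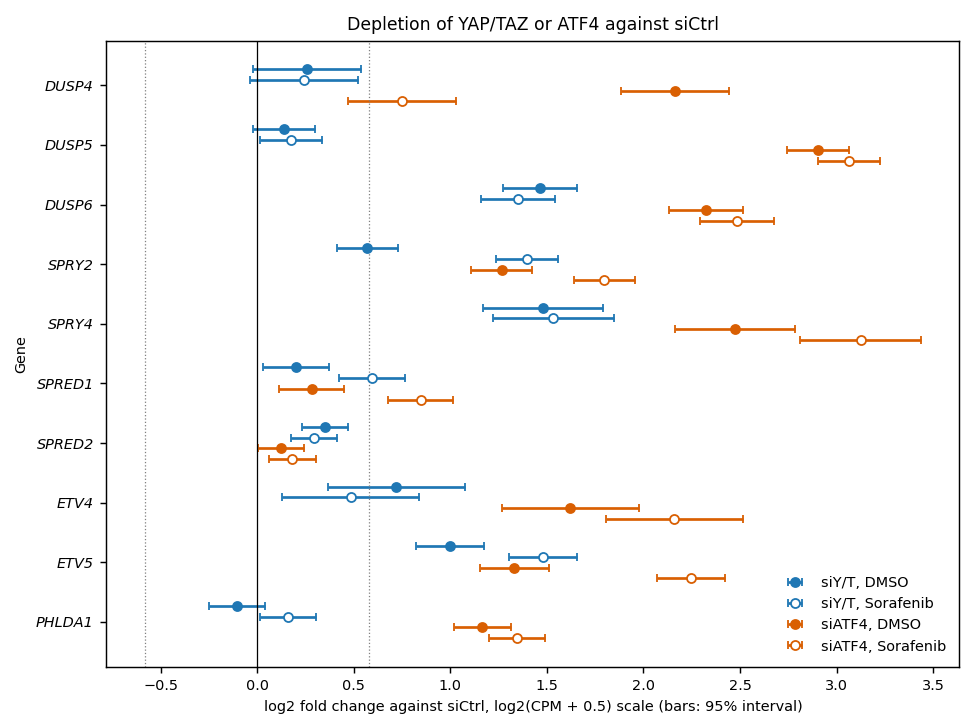
log2 fold change of siY/T (blue) and siATF4 (orange) against siCtrl for each gene, in DMSO (filled) and in Sorafenib (open), on the log2(CPM + 0.5) scale. Bars are 95% intervals from the spread shared by all groups, and dotted lines mark 0.58. *DUSP5* lies near 3 with siATF4, at 2.90 and 3.07, and near 0 with siY/T, at 0.14 and 0.18.

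*DUSP6*, the cytoplasmic phosphatase that acts on ERK itself (GRCh37 chr12:89741012-89746278, minus strand, 3 exons), was at 2.89 and 2.77 CPM in siCtrl DMSO cells and at 0.786 and 0.712 CPM with Sorafenib. In siY/T cells it was at 9.21 and 8.19 CPM in DMSO and at 2.78 and 2.60 CPM in Sorafenib. In siATF4 cells it was at 15.9 and 16.5 CPM and at 6.52 and 6.46 CPM. *DUSP6* was thus lowest in siCtrl Sorafenib cells and highest in siATF4 DMSO cells, and the siY/T Sorafenib libraries overlapped the siCtrl DMSO ones. Sorafenib left 26.5% of its DMSO level in siCtrl, 30.9% in siY/T and 40.1% in siATF4 cells, with log2 fold changes of -1.42, -1.53 and -1.26 (SE 0.09 each). Against siCtrl it rose with siY/T by 1.46 in DMSO and 1.35 in Sorafenib, and with siATF4 by 2.33 and 2.49 on the log2 scale, which is 5.72 and 8.67 times the siCtrl mean CPM.

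*DUSP5*, a nuclear phosphatase that binds ERK (GRCh37 chr10:112257665-112271291, plus strand, 4 exons), was at 27.2 and 25.1 CPM in siCtrl DMSO and at 13.7 and 13.9 CPM in siCtrl Sorafenib cells. The siY/T libraries lay close by, at 31.1 and 26.9 CPM in DMSO and at 16.6 and 14.7 CPM in Sorafenib. With siATF4 it was at 196 and 202 CPM in DMSO and at 117 and 121 CPM in Sorafenib, far above all other libraries. siATF4 raised *DUSP5* 7.60-fold in DMSO (log2 fold change 2.90, SE 0.07) and 8.64-fold in Sorafenib (3.07, SE 0.07), with limma adjusted p = 7.25e-12 and 7.48e-12. With siY/T the values were 0.14 in DMSO (95% interval -0.02 to 0.30), where the libraries of the 2 groups overlapped, and 0.18 in Sorafenib, and neither was called. Sorafenib lowered *DUSP5* to 52.7%, 54.1% and 59.8% of DMSO in siCtrl, siY/T and siATF4 cells.

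*DUSP4*, another nuclear phosphatase of the family (GRCh37 chr8:29190581-29208201, minus strand, 4 exons), was low outside the siATF4 DMSO group. It was at 0.317 and 0.422 CPM in siCtrl DMSO, 0.101 and 0.142 CPM in siCtrl Sorafenib, 0.566 and 0.507 CPM in siY/T DMSO and 0.193 and 0.281 CPM in siY/T Sorafenib cells. In siATF4 DMSO cells it was at 3.51 and 3.27 CPM, or 164 and 165 reads, and in siATF4 Sorafenib cells at 0.512 and 0.578 CPM. The siATF4 DMSO libraries thus stood apart from the other 10. As a description, since that group alone brought the gene into the test, the siATF4 DMSO value was 2.16 above siCtrl DMSO on the log2 scale, and the siATF4 Sorafenib mean was 16.1% of the siATF4 DMSO mean. In Sorafenib it was called higher with siATF4, by 0.75. Its Sorafenib values of -0.48 in siCtrl and -0.49 in siY/T cells were not called, but they were past the threshold with a pseudocount of 0.1 (-1.08 and -0.93), with edgeR (-1.60 and -1.22) and with DESeq2 (-1.64 and -1.21). Its call with siATF4 in Sorafenib was lost with a pseudocount of 1 (0.46).

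*SPRY4*, a Sprouty inhibitor of signalling from receptors to RAF (GRCh37 chr5:141689992-141706020, minus strand, 2 exons), had the largest fall with Sorafenib in siCtrl cells of the 10 genes on this scale. It was at 4.21 and 4.33 CPM in siCtrl DMSO and at 0.585 and 0.611 CPM in siCtrl Sorafenib cells, which is 14.0% of the DMSO mean (log2 fold change -2.12, SE 0.14). In siY/T cells it was at 14.7 and 11.2 CPM in DMSO and at 3.21 and 2.22 CPM in Sorafenib. In siATF4 cells it was at 27.5 and 24.6 CPM and at 8.61 and 9.55 CPM. All 4 siATF4 libraries lay above both siCtrl DMSO libraries, and the siY/T Sorafenib libraries lay below them. siY/T raised *SPRY4* by 1.48 in DMSO and 1.53 in Sorafenib, and siATF4 by 2.48 and 3.12, the last a 15.2-fold ratio of mean CPM.

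*SPRY2*, a second Sprouty protein (GRCh37 chr13:80910111-80915261, minus strand, 2 exons), was at 13.0 and 13.6 CPM in siCtrl DMSO and at 4.64 and 4.54 CPM in siCtrl Sorafenib cells. In siY/T cells it was at 21.0 and 19.0 CPM in DMSO and at 13.7 and 12.2 CPM in Sorafenib. In siATF4 cells it was at 32.2 and 33.0 CPM and at 17.1 and 17.3 CPM. The siY/T Sorafenib libraries bracketed the siCtrl DMSO libraries, and the siCtrl Sorafenib libraries lay below all others. Sorafenib left 34.5% of the DMSO level in siCtrl, 64.7% in siY/T and 52.7% in siATF4 cells, with log2 fold changes of -1.44, -0.61 and -0.90 (SE 0.07 each). The call in siY/T cells was lost without siY/T DMSO replicate 1 (-0.54) or siY/T Sorafenib replicate 2 (-0.53). With siY/T, *SPRY2* was higher by 1.40 in Sorafenib, while its value of 0.57 in DMSO (adjusted p = 2.25e-05) lay just under the threshold, which it passed with a pseudocount of 0.1 (0.584) and without siCtrl DMSO replicate 2 (0.60) or siY/T DMSO replicate 2 (0.64).

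The Spred genes, whose products bind neurofibromin and restrain RAS, had the smaller changes with Sorafenib among the inhibitors by ratio of mean CPM. On the log2(CPM + 0.5) scale *DUSP4*, at -0.48 in siCtrl cells, moved less there than *SPRED1*. *SPRED1* (GRCh37 chr15:38545037-38649450, plus strand, 7 exons) was at 22.7 and 22.8 CPM in siCtrl DMSO and at 15.1 and 14.3 CPM in siCtrl Sorafenib cells. In siY/T cells it was at 24.1 and 28.5 CPM in DMSO and 22.9 and 22.0 CPM in Sorafenib, and in siATF4 cells at 26.8 and 28.7 CPM and at 28.0 and 25.7 CPM. The siCtrl Sorafenib libraries were thus the lowest, and the DMSO and Sorafenib libraries of siATF4 cells overlapped. *SPRED1* fell with Sorafenib in siCtrl cells by 0.61 on the log2 scale, a call lost without siCtrl Sorafenib replicate 2 (-0.577), while the values in siY/T and siATF4 cells were -0.22 and -0.05. In Sorafenib it was higher with siATF4 by 0.85 and with siY/T by 0.59. The siY/T call was lost with TMM scaling (0.54), quantile normalization (0.55), edgeR (0.55), DESeq2 (0.56) or a pseudocount of 1 (0.577), and without siCtrl Sorafenib replicate 2 (0.56) or siY/T Sorafenib replicate 1 (0.56).

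*SPRED2* (GRCh37 chr2:65537985-65659771, minus strand, 6 exons) was at 61.5 and 63.9 CPM in siCtrl DMSO and at 50.4 and 52.0 CPM in siCtrl Sorafenib cells. It was at 79.9 and 80.3 CPM in siY/T DMSO, 65.8 and 60.0 CPM in siY/T Sorafenib, 70.6 and 66.0 CPM in siATF4 DMSO and 59.7 and 56.7 CPM in siATF4 Sorafenib cells. Its highest and lowest groups were siY/T DMSO and siCtrl Sorafenib. *SPRED2* was called in none of these 7 comparisons of 2 groups, with log2 fold changes between -0.35 and 0.35. Its Sorafenib values nevertheless passed a limma adjusted p of 0.05 in all 3 backgrounds (0.000537 in siCtrl, 0.000193 in siY/T and 0.00408 in siATF4 cells), at 81.7%, 78.5% and 85.2% of DMSO, with every Sorafenib library below every DMSO library of its background.

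*ETV5*, a PEA3 factor of the ETS family (GRCh37 chr3:185764103-185828107, minus strand, 13 exons), was at 7.83 and 7.92 CPM in siCtrl DMSO and at 2.04 and 2.32 CPM in siCtrl Sorafenib cells. In siY/T cells it was at 16.9 and 15.6 CPM in DMSO and 7.06 and 6.85 CPM in Sorafenib, and in siATF4 cells at 21.5 and 19.7 CPM and at 12.6 and 11.8 CPM. The siCtrl Sorafenib libraries were the lowest, and siY/T cells with Sorafenib came near the siCtrl level in DMSO. Sorafenib left 27.6% of the DMSO level in siCtrl, 42.8% in siY/T and 59.2% in siATF4 cells (log2 fold changes -1.65, -1.17 and -0.73, SE 0.08 each). It rose with siY/T by 1.00 in DMSO and 1.48 in Sorafenib, and with siATF4 by 1.33 and 2.25.

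*ETV4*, its close relative (GRCh37 chr17:41605212-41656988, minus strand, 13 exons), was at 4.57 and 4.44 CPM in siCtrl DMSO and at 1.15 and 1.20 CPM in siCtrl Sorafenib cells. In siY/T cells it was at 8.62 and 6.96 CPM in DMSO and at 2.35 and 1.43 CPM in Sorafenib. In siATF4 cells it was at 16.1 and 13.7 CPM and at 6.29 and 7.75 CPM, above all siCtrl libraries. Sorafenib lowered it to 26.1%, 24.3% and 47.0% of DMSO in siCtrl, siY/T and siATF4 cells. *ETV4* rose with siATF4 by 1.62 in DMSO and 2.16 in Sorafenib (SE 0.16 each), and with siY/T by 0.72 in DMSO. The siY/T call in DMSO was lost with quantile normalization (0.54) and without siY/T DMSO replicate 1 (0.575). Its siY/T value of 0.49 in Sorafenib was not called, and passed with a pseudocount of 0.1 (0.60), with edgeR (0.64), with DESeq2 (0.64) and without siY/T Sorafenib replicate 2 (0.77). The annotated span of *ETV4* overlaps *DHX8* on the opposite strand, which was at 66.7 to 96.6 CPM in all libraries. The strand setting of the counting is not given in the sources used here, and whether *DHX8* reads enter the *ETV4* values was not tested. *SPRY4-AS1*, opposite *SPRY4*, was at 0 to 1.20 CPM.

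*PHLDA1*, a pleckstrin-homology-like protein whose gene is induced by ERK signalling (GRCh37 chr12:76419227-76425556, minus strand, 2 exons), was at 61.3 and 58.9 CPM in siCtrl DMSO and at 23.7 and 25.9 CPM in siCtrl Sorafenib cells. The siY/T libraries were alike, at 57.1 and 54.5 CPM in DMSO and at 29.1 and 26.3 CPM in Sorafenib. In siATF4 cells it was at 140 and 131 CPM in DMSO and at 66.8 and 60.6 CPM in Sorafenib. The siATF4 Sorafenib libraries lay around the level of siCtrl cells in DMSO. *PHLDA1* fell with Sorafenib to 41.2%, 49.6% and 47.0% of DMSO in siCtrl, siY/T and siATF4 cells. It rose with siATF4 by 1.17 in DMSO and 1.34 in Sorafenib, whereas the siY/T values of -0.11 (95% interval -0.25 to 0.04) and 0.16 (0.01 to 0.30) were not called.

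Whether the Sorafenib response differed after depletion was tested directly as a difference of responses, in which a value above 0 means a smaller fall than in siCtrl cells. For siY/T, 3 genes were higher and 0 lower, where 7.81% of all genes were called higher and 14.2% lower. These were *SPRY2* at 0.83 (SE 0.10, limma adjusted p = 0.000303), *ETV5* at 0.48 (SE 0.12, adjusted p = 0.0114) and *SPRED1* at 0.39 (SE 0.11, adjusted p = 0.0249). The *SPRY2* value corresponds to a fall to 34.5% of DMSO in siCtrl and to 64.7% in siY/T cells. The call of *SPRED1* was lost with no filter on low values (adjusted p = 0.0563) and without any one of 5 libraries (adjusted p 0.0516 to 0.0934), namely either siCtrl DMSO library, siCtrl Sorafenib replicate 2, siY/T DMSO replicate 1 or siY/T Sorafenib replicate 1. For *PHLDA1* the difference was 0.26 (adjusted p = 0.0653), and it passed with DESeq2 (adjusted p = 0.0429), without siY/T DMSO replicate 1 (0.0308) and without siY/T Sorafenib replicate 2 (0.0392). For the other 6 genes the differences lay between -0.24 and 0.05 and were not called, with 95% intervals of -0.19 to 0.26 for *DUSP5*, -0.38 to 0.16 for *DUSP6*, -0.39 to 0.49 for *SPRY4* and -0.74 to 0.27 for *ETV4*. The signs of *DUSP6* (-0.11) and *DUSP4* (-0.013) depended on the scale, and with edgeR the differences were 0.23 and 0.38, also not called. By mean CPM, Sorafenib left 26.5% of *DUSP6* in siCtrl and 30.9% in siY/T cells, and 32.9% and 44.1% of *DUSP4*. The members' median difference was 0.04, beside -0.02 over all genes.

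For siATF4, 4 genes were higher and 1, *DUSP4*, lower, where 19.3% of all genes were called higher and 21.8% lower. The fall with Sorafenib was smaller for *ETV5* by 0.91 (SE 0.12, limma adjusted p = 6.27e-05), for *SPRY4* by 0.65 (SE 0.20, adjusted p = 0.0222), for *SPRED1* by 0.56 (SE 0.11, adjusted p = 0.00146) and for *SPRY2* by 0.53 (SE 0.10, adjusted p = 0.0014). The *SPRY4* call was lost with a pseudocount of 1 (0.30, adjusted p = 0.217), with no filter (adjusted p = 0.0722) and without any one of 6 libraries (adjusted p 0.0503 to 0.0833), namely any siCtrl library, siATF4 DMSO replicate 2 or siATF4 Sorafenib replicate 2. *DUSP4* was lower at -1.42 (adjusted p = 7.31e-05), where the siATF4 DMSO group that brought it into the test is part of the difference, and the call was lost with edgeR (-1.07, adjusted p = 0.114) and DESeq2 (-1.04, adjusted p = 0.218) on the reads, which were 5 and 7 in its siCtrl Sorafenib libraries. The differences of *DUSP6* (0.16) and *ETV4* (0.54) were not called, and both passed with a pseudocount of 0.1 (adjusted p = 0.0167 and 0.0343), quantile normalization (0.00526 and 0.0126), edgeR (0.0175 and 0.0215) and DESeq2 (0.0497 and 0.00629). *ETV4* and *DUSP5* also passed when only the 4 groups compared were fitted (adjusted p = 0.00483 and 0.0475), and *DUSP5* with quantile normalization (adjusted p = 0.0487). The members' median was 0.36, beside -0.01 over all genes. Without *DUSP4*, 4 of 9 were higher and 0 lower, with a median of 0.53.

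Other genes of the pathway were described from lists of 7 further MAP kinase phosphatases, 3 further Sprouty and Spred genes, 18 genes of the cascade from RAS adaptors to ERK, and 10 other genes known as ERK outputs. The shares of all genes called in each comparison are those given above beside the feedback genes. The 18 cascade genes mostly stayed under the threshold, and with Sorafenib 1 was lower and 0 higher in siCtrl cells, 0 were called after siY/T, and 1 was lower and 0 higher after siATF4. The gene called was *SHC1*, an adaptor of receptor tyrosine kinases, which fell by 0.82 in both siCtrl and siATF4 cells. With siATF4, *NRAS* fell by 1.11 in DMSO and 1.26 in Sorafenib, *MAPK3*, which encodes ERK1, fell by 1.04 and 1.12, and *PTPN11*, which encodes the phosphatase SHP2, rose by 0.65 and 0.91. With siY/T, *PTPN11* fell by 0.65 in DMSO, and 0 cascade genes were called in Sorafenib. In the difference of Sorafenib responses, 2 cascade genes were higher and 2 lower for siY/T, beside 7.81% and 14.2% of all genes. For siATF4, 4 were higher and 0 lower, beside 19.3% and 21.8% of all genes.

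**Figure D4:**
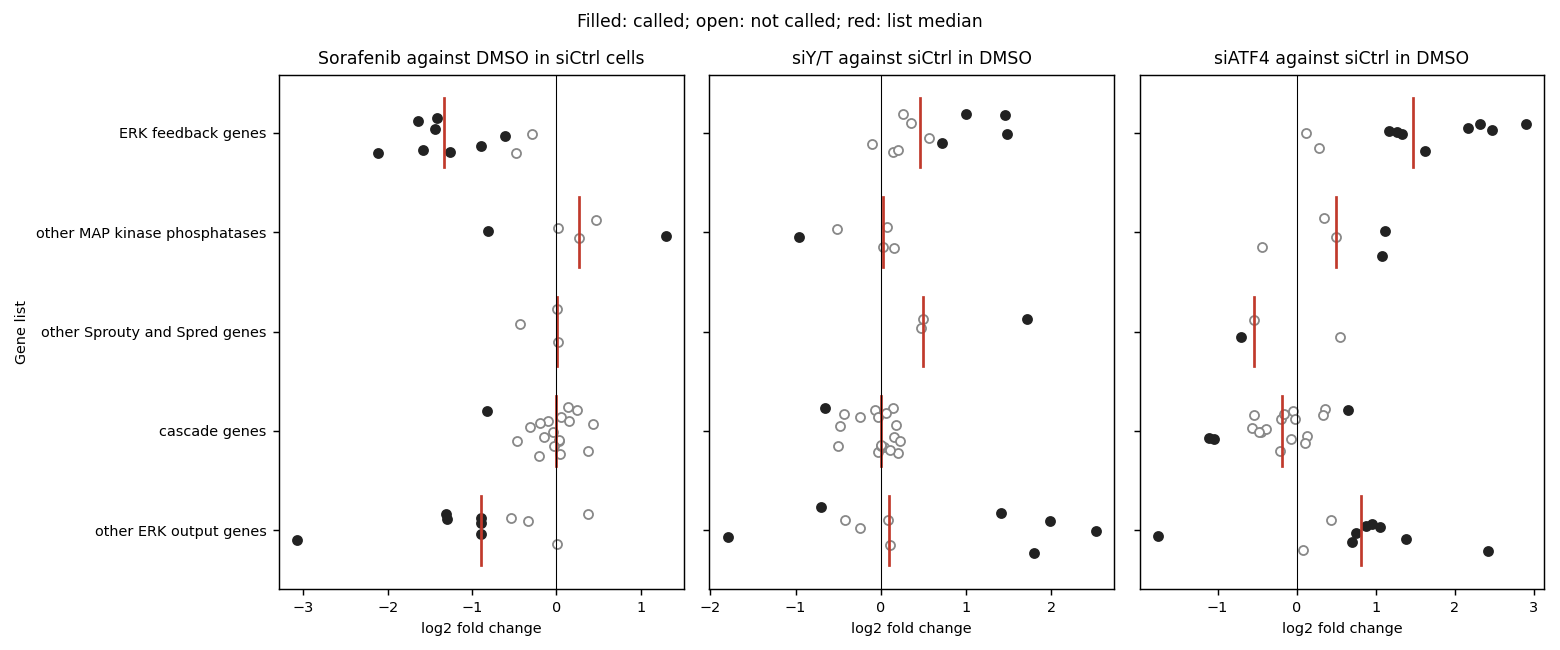
log2 fold changes of the 10 feedback genes and of the 4 lists in 3 comparisons, on the log2(CPM + 0.5) scale with 1 axis range per panel. Each point is a gene, filled where called and open where not, the vertical scatter has no meaning, and red marks the median of a list. The median of the 10 genes lies at -1.34 with Sorafenib and at 1.48 with siATF4, and that of the 18 cascade genes at 0.00 and -0.18.

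The 10 other ERK output genes, chosen with the feedback genes' own values already known, fell with Sorafenib in 6 cases in siCtrl cells, 5 in siY/T cells and 5 in siATF4 cells, and rose in 0. Their median log2 fold changes were -0.89, -0.63 and -0.51. *EGR1*, an immediate early zinc finger factor, was at 5.20 and 5.97 CPM in siCtrl DMSO and at 0.202 and 0.244 CPM in siCtrl Sorafenib cells. In siY/T DMSO cells *EGR1* was at 35.8 and 33.0 CPM, and with Sorafenib at 0.471 and 0.748 CPM, which is 1.77% of DMSO, and it fell by 4.99 on the log2 scale. In siATF4 cells it was at 9.56 and 9.27 CPM in DMSO and at 0.493 and 0.492 CPM in Sorafenib. *EGR1* was therefore highest in siY/T DMSO cells, unlike the feedback phosphatases, which were highest in siATF4 DMSO cells. *CCND1*, which encodes cyclin D1, fell with Sorafenib in siCtrl cells by 1.31, and *FOSL1*, which encodes the AP-1 subunit FRA1, by 1.30.

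With siATF4, 7 of these 10 rose and 1 fell in DMSO, and 6 rose and 1 fell in Sorafenib. *HBEGF*, a ligand of the EGF receptor, was at 55.6 and 54.7 CPM in siATF4 DMSO against 9.66 and 10.0 CPM in siCtrl DMSO cells, a rise of 2.43. *FOSL1* rose by 1.39 in DMSO and 2.03 in Sorafenib, *CCND1* rose by 2.07 in Sorafenib, and *EPHA4*, an ephrin receptor, fell by 1.75 in DMSO. With siY/T, 4 rose and 2 fell in either medium, among them *ETV1*, a further PEA3 factor, up by 1.99 in DMSO and 2.38 in Sorafenib, *EPHA4*, up by 1.80 and 1.70, and *FOSL1*, down by 1.20 in Sorafenib. In the difference of Sorafenib responses, 3 of these genes were higher and 3 lower for each depletion. Of all genes, 7.81% were higher and 14.2% lower for siY/T, and 19.3% and 21.8% for siATF4. Among the 3 lower for siY/T was *EGR1*, at -1.915 (limma adjusted p = 3.75e-05). Sorafenib left 3.99% of its DMSO level in siCtrl and 1.77% in siY/T cells, with log2 fold changes of -3.07 and -4.99. Among the 3 higher for siY/T was *CCND1*, at 0.56 (adjusted p = 0.00377).

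Of the 7 other MAP kinase phosphatases 5 were tested, and with Sorafenib in siCtrl cells 1 rose and 1 fell, in siY/T cells 0 rose and 1 fell, and in siATF4 cells 1 rose and 0 fell. *DUSP7*, the cytoplasmic relative of *DUSP6*, was at 50.4 and 47.8 CPM in siCtrl DMSO and at 28.2 and 27.2 CPM in siCtrl Sorafenib cells, a fall by 0.82. With siATF4 it was at 68.7 and 70.2 CPM in DMSO and at 67.0 and 70.4 CPM in Sorafenib, where its libraries overlapped. *DUSP7* was thus 2.48-fold higher with siATF4 in Sorafenib, and it was lower with siY/T by 0.96 in DMSO and 0.63 in Sorafenib, the direction opposite to *DUSP6*. With siY/T 0 of the 5 rose and 1 fell in DMSO, and 0 rose and 4 fell in Sorafenib, among them *DUSP1*, a nuclear phosphatase, by 0.87 and *DUSP16* by 0.65. With siATF4 2 rose and 0 fell in DMSO, and 1 rose and 1 fell in Sorafenib. In the difference of Sorafenib responses 1 was higher and 3 lower for siY/T (7.81% and 14.2% of all genes), and 1 higher and 2 lower for siATF4 (19.3% and 21.8%).

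The 3 remaining Sprouty and Spred genes *SPRY1*, *SPRY3* and *SPRED3* did not exceed 3.77 CPM. None of the 3 was called with Sorafenib in siCtrl or siY/T cells, and 1 fell in siATF4 cells. With siY/T, 1 of the 3 rose in DMSO and 3 of the 3 in Sorafenib, and with siATF4 0 rose and 1 fell in either medium. The gene that fell with siATF4 was *SPRY3*, at -0.71 in DMSO and -0.74 in Sorafenib. The siATF4 values of *SPRY1*, -0.53 and -0.17, were not called. *SPRY1* was at 3.10 and 2.54 CPM in siY/T DMSO against 0.354 and 0.688 CPM in siCtrl DMSO cells, and at 0.257 and 0.139 CPM in siATF4 DMSO cells. Its rise with siY/T was 1.72 in DMSO and 1.94 in Sorafenib, so that this Sprouty gene was highest in the siY/T groups, while *SPRY2* and *SPRY4* were highest in siATF4 DMSO cells. In the difference of Sorafenib responses 0 were called for siY/T, and 1 was lower for siATF4, where 21.8% of all genes were lower.

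The members' own patterns were compared over the 12 libraries on the log2(CPM + 0.5) scale, as a description only, since the libraries share 6 groups and genes are not independent replicates. The 45 pairs of members had Pearson's r between 0.223, for *DUSP5* and *SPRED2*, and 0.992, for *DUSP6* and *SPRY4*, with a median of 0.844. Among the 11152 genes whose mean reached 5 CPM, *SPRY4* was the gene most like *DUSP6* (0.992), followed by *SH2B3* (0.989), and *SH2B3* was the gene most like *SPRY4* (0.994). *SPRY2* was most like *OPA3* (0.995) and then *ETV5* (0.983), and *ETV5* was most like *OPA3* (0.984), *SPRY2* (0.983) and *SPRY4* (0.981). *DUSP5* was most like *ASB1* (0.996), *ATP6V0B* and *MIEF1* (0.995 each), *DUSP4* most like *RELA* and *TRAPPC2B* (0.984 each), and *PHLDA1* most like *MGAT5* (0.989). *ETV4* was most like *HYOU1* (0.982), *SPRED1* most like *SRSF6* (0.974), and *SPRED2* most like *SLC25A44* and *SLC38A12* (0.956 each). Thus *DUSP6*, *SPRY2*, *SPRY4*, *SPRED1* and *ETV5* had another member among their 3 nearest genes, and *DUSP4*, *DUSP5*, *SPRED2*, *ETV4* and *PHLDA1* had none.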

How the data were processed

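RNA-seq of 12 libraries of HLE cells was analysed, 2 in each of 6 groups taken from the sample labels. Per the study's methods and the labels, the authors aligned the single-end reads by STAR to hg19 (unique hits), summed them over RefSeq exons in QuasR and deposited CPM. The labels name a stranded poly(A) kit. Labels and the study's text differ on the sequencer, the replicate number and the Sorafenib dose, and the labels were followed. All 12 columns were mapped, and 0 were left unmapped. In every library 100% of the deposited CPM values were whole numbers of reads to within 0.01, and these reads were recovered. Library depth had a median of 47939446 reads on genes.

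Gene symbols were taken from RefSeq, GRCh38.p14 (26111 of 26258 identifiers), positions from GENCODE on GRCh37, and promoters from RefSeq. For the 13515 genes reaching 1 CPM in 2 libraries or more, log2(CPM + 0.5) was modelled in limma 3.58.1 (R 4.3.3), using 1 coefficient for each group, a variance trend on the mean and adjustment over all genes. The 9 comparisons and their alternatives were listed with the sample map: pseudocounts of 0.1 and 1, no filter or a filter at 5 CPM, quantile normalization, TMM scaling, a block for the replicate number, edgeR 4.0.16 and DESeq2 1.42.0 on recovered reads, a fit of the compared groups alone, adjusted p with a change of 0.58 or 1, and each library left out in turn.

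The members, the pathway lists and the rule for named genes were chosen with earlier results of these data known. The rule names all 10 members, the siRNA targets, up to 3 called genes of each list and comparison whose mean reached 5 CPM, and the 3 tested genes most like each member. The values of *SPRY1* and *SPRY3*, both below that mean, and the search for the 4-letter ETS core were added after values had been seen. The fits were tested on simulated reads. Figures were drawn with Python 3.11.15 and matplotlib 3.10.9.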

Additional observations from a re-analysis of the deposited data

Results flagged for a closer look

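The tests of the difference between 2 Sorafenib responses singled out 8 values on the log2(CPM + 0.5) scale, each from limma with Benjamini-Hochberg adjustment. After siY/T the fall with Sorafenib was smaller than in siCtrl cells for *SPRY2* (0.83, adjusted p = 0.000303), *ETV5* (0.48, adjusted p = 0.0114) and *SPRED1* (0.39, adjusted p = 0.0249). After siATF4 it was smaller for *ETV5* (0.91, adjusted p = 6.27e-05), *SPRY4* (0.65, adjusted p = 0.0222), *SPRED1* (0.56, adjusted p = 0.00146) and *SPRY2* (0.53, adjusted p = 0.0014). It was larger for *DUSP4* (-1.42, adjusted p = 7.31e-05), whose siCtrl Sorafenib libraries hold 5 and 7 reads and which passed the filter only through the siATF4 DMSO group. That call was lost with edgeR (-1.07, adjusted p = 0.114) and DESeq2 (-1.04, adjusted p = 0.218). Both sets of differences share the 4 siCtrl libraries.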

How the results depend on the processing

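The directions of all called changes of the 10 genes held under every alternative tried, and the counts moved as follows. When an adjusted p under 0.05 was required together with a change of 1 or more, the members called with Sorafenib numbered 4 in siY/T and 5 in siATF4 cells (86 and 94 of the 13515 genes were lower). At the same threshold they numbered 2 with siY/T in DMSO (419 genes were higher). In the difference of responses they numbered 0 for siY/T and 1 for siATF4 (75 and 318 genes in either direction). That 1 was *DUSP4*, which is also among the 5 and passed the filter only through the siATF4 DMSO group. When the required change was 0.58 or more, the differences called numbered 1 for siY/T and 3 for siATF4 (670 and 1659 genes). Of those 3, 2 were higher and 1, *DUSP4*, was lower. With quantile normalization they numbered 8 for siATF4, 7 higher and 1, again *DUSP4*, lower, where 5283 of the 13515 genes were called. Directions turned only among values that were not called. In the differences of responses these were, for siY/T, *DUSP4* (0.15 with a pseudocount of 0.1, 0.19 with quantile normalization, 0.38 with edgeR, 0.42 with DESeq2), *DUSP6* (0.13, 0.13, 0.23 and 0.25) and *SPRY4* (-0.19 with a pseudocount of 1), and for siATF4 *DUSP6* (-0.067 with a pseudocount of 1). *DUSP4* had no value under the filter at 5 CPM.

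Leaving out 1 library at a time left 1 library in the group it came from. The share of all genes called was not taken for these fits, so counts of members called are not given for them. These fits kept the genes that passed the filter on all 12 libraries. *DUSP4* therefore stayed in also where a siATF4 DMSO library was left out. Values that crossed 0 ranged from -0.11 to 0.015 for *SPRED1* with Sorafenib in siATF4 cells and, in the siY/T difference, from -0.10 to 0.074 for *DUSP4*, -0.069 to 0.14 for *DUSP5*, -0.17 to 0.28 for *SPRY4*, -0.13 to 0.0072 for *SPRED2* and -0.52 to 0.048 for *ETV4*.

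Over 15 pairs of groups the correlation of the deviations of same-numbered libraries lay between -0.282 and 0.193, with 4 over 0.1. Within a medium all were above 0, at 0.100, 0.118 and 0.164 among the Sorafenib groups and at 0.0358, 0.0976 and 0.193 among the DMSO groups, while 8 of 9 between media were below 0. The labels name no shared batch, and the numbers were not taken to pair the samples. With the replicate block the members called numbered 8 with Sorafenib in siCtrl cells (696 genes were lower) and 3 and 5 in the differences of responses (2814 and 5456 genes in either direction). No member's call changed. That block was the same term for both media, so it could not take up deviations that change sign between media. Over all values computed under alternatives, 1406 stayed on their side of the threshold, 53 fell below it, 29 passed it and 23 turned direction.

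Quantile normalization moved the split of all genes between higher and lower calls, from 1665 and 696 to 1125 and 1025 for Sorafenib in siCtrl cells, from 788 and 560 to 645 and 729 in siY/T cells, from 768 and 399 to 552 and 457 in siATF4 cells, from 1485 and 488 to 1044 and 789 for siY/T in DMSO, and from 1386 and 2525 to 1903 and 2024 for siATF4 in Sorafenib. DESeq2 gave 1385 and 771 for siY/T in DMSO.

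With 2 libraries a group, the limits lie in *DUSP4*, with 5 to 29 reads in each siCtrl and siY/T library, and in values near 0.58. They also lie in *SPRY4*, with 29 and 30 reads, and *DUSP6*, with 39 and 35 reads, in the siCtrl Sorafenib libraries. Ratios of these 2 genes against that group rest on those reads. Libraries of siY/T DMSO cells differed most from each other, with a chi-square of 20.7 per gene against 2.98 to 8.30 in the other groups. The limma fit shares the spread of a gene over all groups, so its intervals do not widen for that group.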
